A study of Solanum lycopersicum x Solanum pennellii and Solanum lycopersicum with 17 samples.

Results

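Carpels of the tomato introgression line IL-1_1 were compared directly with carpels of IL-1_4, a line with another segment of the same chromosome. The comparison was made of the 4 arrays titled IL-1_1 and the 3 arrays titled IL-1_4, which are 7 of the 17 arrays in the study, over all 10101 probe sets that are not controls. IL-1_1 and IL-1_4 each hold a piece of chromosome 1 from the wild species Solanum pennellii in the background of the cultivar M82, so the lines share the M82 background and differ over both segments. The other 10 arrays, 4 of IL-2_3 with a segment of chromosome 2 and 6 of the parental cultivar M82, enter no test here and serve as levels to set beside the 2 lines. All carpels were taken 7 days after pollination from potted plants that were grown in a climate-controlled facility and treated alike. The design text speaks of hybrids, and whether the plants were homozygous or heterozygous for their segment is not settled by the sources used here. No label says whether replicate arrays stand for separate plants. The p-values therefore measure only the spread between these arrays, which may be technical.

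An introgression line differs from its parent at the genes inside its segment and, through them, can differ at genes anywhere else. The carpels of a pollinated tomato flower grow into the fruit wall, first by cell division and then by cell expansion, with auxin and gibberellin as the hormones best known to set this growth going. Ethylene and abscisic acid are best known from ripening and from water stress, and genes of both pathways are active in the young ovary too. The positions of the genes were not analysed here, so no gene below is placed inside or outside a segment.

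Values are log2 intensities, so that a difference of 1 is a 2-fold difference, and differences are IL-1_1 minus IL-1_4. The carpel and fruit gene TAGL1, a MADS-box factor, averaged 10.94 in IL-1_1 and 10.94 in IL-1_4. TPRP-F1, a proline-rich protein gene of young fruit, averaged 14.25 ± 0.19 and 14.40 ± 0.05 (SD, n = 4 and 3). The remaining young fruit marker, fsm1, differed and is described with the growth genes below (1.39, limma adjusted p = 0.0151). The pollen receptor kinase genes PRK1, PRK2 and PRK3 lay between 3.90 and 4.75 in the means of both lines, and the stigma gene Stig1 averaged 3.96 in IL-1_1 and 4.19 in IL-1_4, near the lowest values on the arrays, 3.45 to 3.60. LAT61, listed among pollen genes, was bright in both lines, at 12.42 and 12.32. The seed gene LEA14 gave 0.39 (adjusted p = 0.49). Apart from fsm1, none of these was called different. In whole carpels, fewer cells of a type and less RNA per cell cannot be told apart.

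Of the 10101 probe sets, 1824 (18.1%) were called different between IL-1_1 and IL-1_4 with limma at a false discovery rate of 0.05. In IL-1_1, 977 of them (9.67% of those tested) were higher and 847 (8.39%) lower. Which direction held more calls was not settled, with 905 higher and 1057 lower when each array was centred on its median, 913 and 919 after quantile normalization, 849 and 927 over all 17 arrays and 1369 and 1473 with array weights. The arrays of both lines did not overlap at 4023 probe sets (39.8%). This held for 976 of the 977 calls higher in IL-1_1 and for all 847 lower. That the lines did not overlap at a called gene below is therefore no further support for its call. The calls had a median size of 0.756 on the log2 scale, whichever their direction, and all probe sets tested one of 0.281. More than 4-fold, 102 were higher and 45 lower in IL-1_1. Only 172 calls carry a gene symbol, 110 higher and 62 lower, because the annotation names 909 of the probe sets. The count fell whichever IL-1_4 array was left out, to 662, 530 and 496 calls without IL-1_4 replicate 1, 2 and 3. Those fits rest on 2 arrays of that line, so fewer samples and dependence on a given array cannot be told apart. Without IL-1_1 replicate 4 the count was 1094. The 3 IL-1_4 arrays were closely alike, with correlations between 0.994 and 0.996 and a median SD of 0.114, whereas the 4 IL-1_1 arrays correlated at 0.958 to 0.989 with a median SD of 0.221.

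**Figure D1:**
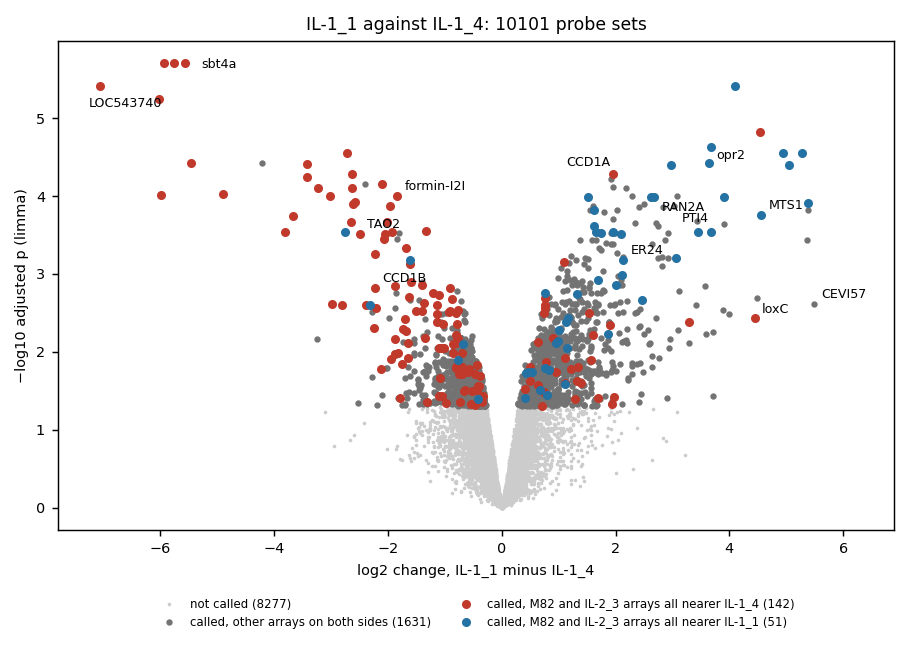
The log2 change of each of 10101 probe sets, IL-1_1 minus IL-1_4 (x axis), against −log10 of the limma adjusted p (y axis). Red points are the 142 calls whose 10 M82 and IL-2_3 arrays all lie nearer IL-1_4, most of them lower in IL-1_1, and blue points the 51 calls whose other arrays all lie nearer IL-1_1, most of them higher in IL-1_1.

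A direct comparison does not say which line differs from the rest, and the arrays of M82 and IL-2_3 were therefore set beside each call. At 142 of the 1824 calls (7.79%), all 10 of those arrays lay on the IL-1_4 side of the midpoint between the 2 lines, so that IL-1_1 stood apart; 33 of these were higher in IL-1_1 and 109 lower. At 51 calls (2.8%) the other arrays all lay on the IL-1_1 side, so that IL-1_4 stood apart, and 45 of these were higher in IL-1_1, which is to say lower in IL-1_4. Over all probe sets tested, called or not, the shares were 2.99% and 1.03%. The line that stood apart thus had the lower signal at 109 of 142 and at 45 of 51 calls. The probes have fixed sequences, and how well transcripts of S. pennellii alleles bind them was not tested. At the remaining 1631 calls (89.4%) the other arrays lay on both sides. Among the 147 calls of more than 4-fold, IL-1_1 stood apart at 36, with 3 higher and 33 lower, and IL-1_4 at 22, with 20 higher in IL-1_1 and 2 lower. With M82 replicate 1 and IL-2_3 replicate 4 left out, a choice made after seeing the data, IL-1_1 stood apart at 410 calls and IL-1_4 at 55.

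The genes with a symbol at which IL-1_1 stood apart were led by a pair of falls to near the bottom of the scale. LOC543740, which the annotation gives as a number only, measured 5.08, 5.002, 5.09 and 4.96 in IL-1_1, against 12.52, 12.11 and 11.65 in IL-1_4. Every IL-1_1 array was low and the M82 arrays lay between 10.89 and 12.78, so the groups were far from overlapping. Its change was -7.06 ± 0.19 (SE; limma adjusted p = 3.84e-06). The subtilisin-like protease gene sbt4a measured 3.96, 3.88, 4.05 and 3.85 in IL-1_1 and 9.82, 9.85 and 9.42 in IL-1_4. It was near the floor of the arrays in all 4 IL-1_1 samples and bright in the IL-1_4, IL-2_3 and M82 samples, where M82 ran from 8.64 to 9.90. The change of -5.76 ± 0.13 (adjusted p = 1.95e-06) is therefore a lower limit to the difference in signal. The same holds below for opr2 and Les.457.2.A1_at, whose dim means lay within the 3.79 to 5.01 of the pollen receptor kinase probe sets over the 7 arrays, and the dim means of LOC543740, MTS1, CEVI57 and LOC543813, 5.03, 5.11, 5.18 and 5.17, lay just above that range. The other members counted in the protease list, which are subtilases and leucine aminopeptidases, were not called: sbt3 gave -0.60 (adjusted p = 0.137), SBT2 -0.19 (0.524) and SBT1 0.48 (0.363). The symbol pip1 also fits the list's pattern but is not counted in it. pip1 was called higher in IL-1_1, at 6.528, 5.345, 7.499 and 7.518, against 4.673, 4.58 and 5.166 in IL-1_4. That call was lost without IL-1_1 replicate 1, 3 or 4 or any single IL-1_4 array (adjusted p up to 0.145). A pair of probe sets without a symbol fell about as far as LOC543740 and sbt4a. Les.3091.1.A1_at averaged 7.25 ± 0.33 in IL-1_1 and 13.27 ± 0.01 in IL-1_4, a change of -6.02 ± 0.18, and Les.4203.1.A1_at 6.35 ± 0.64 and 12.33 ± 0.14, a change of -5.98 ± 0.33.

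The paralogs CCD1A and CCD1B, whose carotenoid cleavage dioxygenases cut carotenoids into volatile apocarotenoids, differed in opposite directions. CCD1A measured 12.13, 12.04, 12.15 and 12.05 in IL-1_1, against 10.28, 10.07 and 10.07 in IL-1_4, a change of 1.95 ± 0.09 (limma adjusted p = 5.15e-05). CCD1B measured 8.47, 8.75, 7.83 and 8.76 in IL-1_1, against 10.69, 10.60 and 10.75 in IL-1_4, a change of -2.23 ± 0.23 (adjusted p = 0.0015). For both genes it was IL-1_1 that stood apart, since M82 averaged 10.29 ± 0.14 for CCD1A and 10.75 ± 0.20 for CCD1B (SD, n = 6), close to IL-1_4. Both are listed with the carotenoid and plastid isoprenoid genes, of which 1 of 12 probe sets was called higher and 2 lower. Those shares, 8.33% and 16.7%, stand beside 9.67% and 8.39% of all probe sets. The list's median change was -0.04, the same as the -0.04 over all probe sets tested. The other call was CrtR-b1, a beta-carotene hydroxylase gene (-0.41, adjusted p = 0.0267), which was lost without IL-1_1 replicate 3 or any single IL-1_4 array (adjusted p up to 0.12). Probe sets of the phytoene synthase gene Psy1, which catalyses the entry step of carotenoid synthesis, gave 0.18, 0.41 and 0.47, and none was called.

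TAO2, of the aldehyde oxidase family, measured 8.20, 7.93, 7.70 and 8.49 in IL-1_1 and 10.62, 10.59 and 10.50 in IL-1_4. It fell by 2.49 on the log2 scale (SE 0.19; limma adjusted p = 0.000303), and IL-1_1 lay below M82, at 10.50 ± 0.34, as well. Its relative TAO3 was dim, at 5.10 in IL-1_1 and 5.07 in IL-1_4, and was not called. formin-I2I, a gene of the formins that nucleate actin filaments, measured 5.33, 5.53, 5.39 and 5.43 in IL-1_1 and 7.30, 7.09 and 7.36 in IL-1_4, a change of -1.84 ± 0.10 (adjusted p = 9.86e-05). The groups did not overlap, and M82 averaged 7.67 ± 0.41. The actin, profilin and tubulin probe sets in the same list gave 0.04, -0.14 and -0.39, and none was called.

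Of the 15 symbols at which IL-1_1 stood apart, loxC had the largest rise. Its product is a lipoxygenase that supplies fruit volatiles made from fatty acids. It measured 9.41, 10.92, 11.78 and 9.62 in IL-1_1, against 6.04, 6.26 and 5.66 in IL-1_4, and the change was 4.45 ± 0.57 (limma adjusted p = 0.00369). The IL-1_1 arrays spread over more than 2 units among themselves, yet the lowest of them was above the highest M82 array, at 7.07. Calls of IL-1_1 apart that held with any array left out were those of LOC543740, sbt4a, TAO2, CCD1B, formin-I2I, CCD1A, loxC and LOC543681 (-0.78 ± 0.12, adjusted p = 0.00644). The rest of the 15 were near the threshold. The protein phosphatase gene PP2Ac2 (-0.68, adjusted p = 0.0186) and XOPG1 (-0.43, 0.0147) were lost without any single IL-1_4 array, that is, whichever of the 3 was left out, and CLB1 (0.49, 0.0156) without replicate 2 or 3 of IL-1_4. The nuclease gene TBN1 (1.97, 0.0384), the allene oxide synthase gene AOS of jasmonate synthesis (-0.98, 0.0448), the xyloglucan endotransglycosylase gene tXET-B2 (1.93, 0.0463) and LOC543813 (1.29, 0.04) were lost without any single IL-1_4 array. TBN1 was also lost without IL-1_1 replicate 3, AOS without replicate 1 or 3, tXET-B2 without 2 or 4, and LOC543813 without 1, 3 or 4. The highest adjusted p with an array left out was 0.0783 for CLB1, 0.0775 for PP2Ac2, 0.0772 for XOPG1, 0.141 for TBN1, 0.15 for AOS, 0.155 for tXET-B2 and 0.135 for LOC543813. Several of these 15 symbols, XOPG1, CLB1, PP2Ac2, TBN1, AOS, tXET-B2, LOC543681 and LOC543813 among them, were named after their values were seen.

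**Figure D2:**
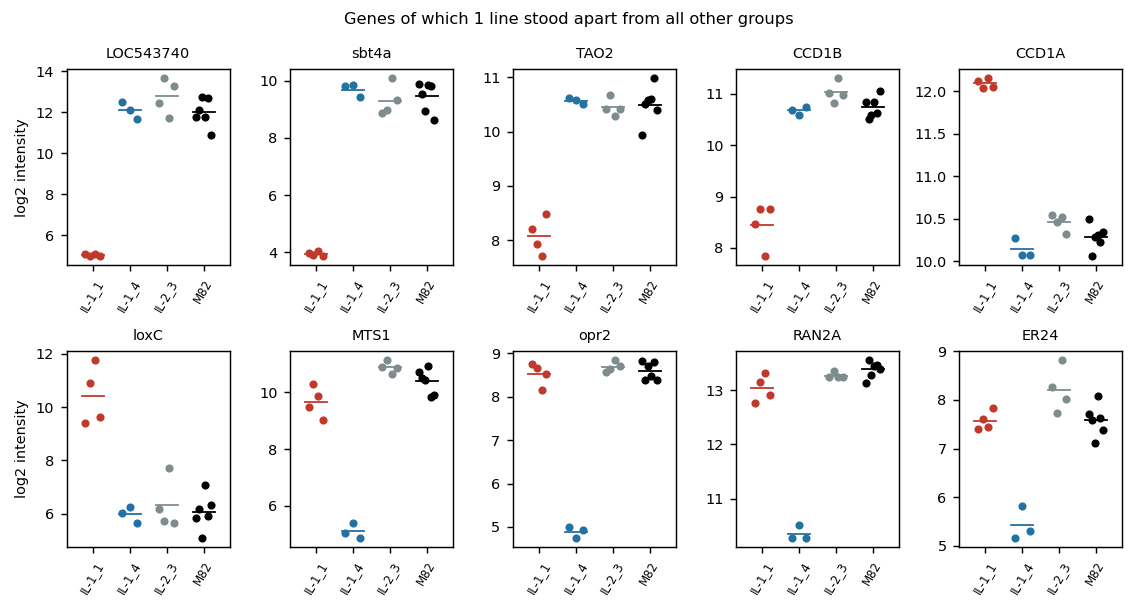
Log2 intensity (y axis of each panel, own scale) of 10 genes in every array of IL-1_1, IL-1_4, IL-2_3 and M82, with a line at each group's mean. The IL-1_1 points stand alone for LOC543740, sbt4a, TAO2, CCD1B, CCD1A and loxC, and the IL-1_4 points stand alone, and low, for MTS1, opr2, RAN2A and ER24.

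At 5 symbols it was IL-1_4 that stood apart, each time with the lowest signal. MTS1, a monoterpene synthase gene, measured 9.48, 10.29, 9.88 and 9.03 in IL-1_1, against 5.05, 5.39 and 4.88 in IL-1_4. The change was 4.56 ± 0.30 (limma adjusted p = 0.000174), and the M82 arrays, between 9.83 and 10.91, lay with IL-1_1. opr2, of the 12-oxophytodienoate reductase family, measured 8.75, 8.67, 8.15 and 8.54 in IL-1_1 and 4.99, 4.75 and 4.92 in IL-1_4, a change of at least 3.64 (SE 0.16; adjusted p = 3.75e-05). IL-2_3 averaged 8.70 ± 0.12 and M82 8.60 ± 0.20, within the range of the IL-1_1 arrays. OPR3, the family member known from jasmonate synthesis, averaged 11.53 in IL-1_1 and 11.77 in IL-1_4 and was not called (-0.23, interval -0.63 to 0.16).

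RAN2A encodes a Ran GTPase, a small GTPase of transport through the nuclear pore. It measured 12.76, 13.15, 13.32 and 12.90 in IL-1_1 and 10.28, 10.51 and 10.28 in IL-1_4, a change of 2.68 ± 0.15 (limma adjusted p = 0.000103). The other Ran genes were not called, with RAN1 at 13.23 in IL-1_1 and 13.43 in IL-1_4 and RAN2B at 12.83 and 12.90. Near-identical copies can share signal between probe sets, so the RAN2A value is uncertain to that extent. Of the 10 probe sets of small GTPase genes RAN2A was the only call (10%, near the 9.67% of all probe sets called higher). The list's median change was -0.03. ER24, an ethylene-responsive gene, measured 7.40, 7.61, 7.44 and 7.84 in IL-1_1 and 5.17, 5.82 and 5.32 in IL-1_4, a change of 2.14 ± 0.19 (adjusted p = 0.000656). M82 averaged 7.58 ± 0.32, level with IL-1_1. LOC543892 gave 1.12 ± 0.26 (adjusted p = 0.0261) and was lost without IL-1_1 replicate 4 or IL-1_4 replicate 1 or 3 (adjusted p up to 0.0827). Among probe sets without a symbol, Les.457.2.A1_at averaged 10.16 ± 0.58 in IL-1_1 and 4.78 ± 0.28 in IL-1_4, with M82 at 10.87 ± 0.51, a change of at least 5.38 (SE 0.32; adjusted p = 0.000121).

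The M82 and IL-2_3 arrays also differed among themselves along a main axis, since the first principal component of the deviations within M82 and within IL-2_3 held 54.8% of their variance. On it the IL-1_1 arrays scored 52.66, 3.54, 12.07 and 31.26, and the IL-1_4 arrays -13.03, -16.60 and -16.59. Every IL-1_1 array was above every IL-1_4 array, and the means differed by 40.29, with p = 0.0571 in an exact two-sided permutation test over 35 splits, of which the smallest possible p is 0.0286. M82 ran from -36.69 to 43.2, the highest being replicate 1, and replicate 4 of IL-2_3 scored 33.33 where its other arrays scored -14.04 to -10.77. The mean difference between 3′ and 5′ control probe sets, a measure of RNA integrity, ran from 0.406 to 0.651 in IL-1_1 and from 0.397 to 0.715 in IL-1_4 and so overlapped. Of the 6 controls in that mean 5 overlapped between the lines, and 1 did not: the difference for PhyB2, a phytochrome gene, ran from 3.112 to 4.024 in IL-1_1 and from 2.576 to 3.008 in IL-1_4. PhyB2 was highest in IL-1_1 replicates 1 and 4, at 4.024 and 3.971, the IL-1_1 arrays with the highest axis scores, and M82 replicate 1, at 3.593, was the next. IL-2_3 replicate 4, also high on the axis, was at 3.059, within the 2.657 to 3.208 of its group. The part of the PhyB2 difference in the results was not tested. With the score as a covariate 345 probe sets were called, 223 higher and 122 lower, and 243 of them were among the 1824. Of the 172 calls with a symbol 29 were kept with it and 143 were lost, and none of the 172 changed sign. Those kept were the calls of LOC543740, sbt4a, TAO2, CCD1A, CCD1B, formin-I2I, loxC, LOC543681, PP2Ac2, MTS1, opr2, RAN2A, ER24, PTI4, ERF4, CEVI57, GAL83, BR1, BL2, LOC543605, LOC544312, LOC543970 and LOC544276, both of LOC778362, all 3 of BMY3 and 1 of the 3 of ACO6. Every other call of a gene with a symbol, before or after this paragraph, was lost with the covariate, whether or not its value is given. Because the lines did not overlap on the score, this fit cannot tell the axis from the line. Calls were lost both where the change shrank and where it did not, as the values below show. A lost call alone does not show that the axis accounts for it. The part of the axis in these calls was not tested beyond that fit.

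**Figure D3:**
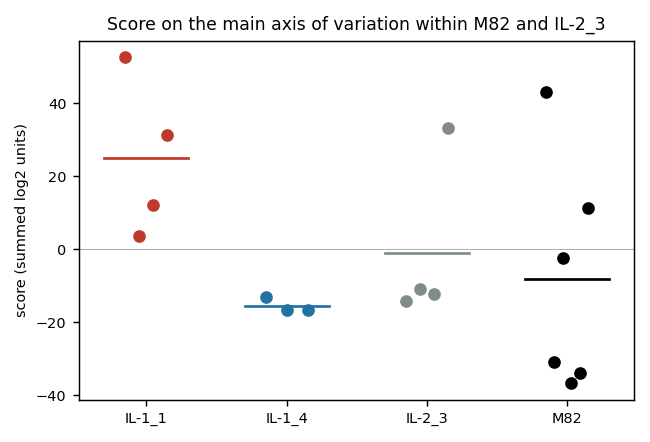
Score of each array (y axis, summed log2 units) on the main axis of variation within M82 and within IL-2_3, by group, with a line at each group's mean. The 4 IL-1_1 arrays sit between 3.54 and 52.66 and the 3 IL-1_4 arrays between -16.60 and -13.03, while M82 covers -36.69 to 43.2.

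Some ethylene genes were called higher in IL-1_1 at each level of the pathway. For synthesis, 4 of 15 were called higher and 0 of 15 lower, and the median change was 0.12. Among the receptors and signalling genes 4 of 13 were higher and 0 lower (median 0.40), and among the response genes 4 of 19 were higher and 1 lower, with a median of 0.52. These counts stand beside 9.67% of all probe sets called higher and 8.39% called lower, and a median of -0.04 over all. With the axis score as covariate the medians were -0.08, 0.02 and 0.02, and 1, 0 and 3 probe sets were called higher, and none lower.

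The synthesis calls were those of ACO6 and SAM1. ACO6 encodes an ACC oxidase, the enzyme of the final step to ethylene. Its probe set with the largest change measured 12.02, 10.42, 11.31 and 11.39 in IL-1_1, against 7.40, 7.61 and 8.13 in IL-1_4. The 3 ACO6 probe sets rose by 3.57 ± 0.36, 3.41 ± 0.40 and 2.42 ± 0.33 (limma adjusted p = 0.00145, 0.00249 and 0.00482), and IL-1_1 and IL-1_4 did not overlap at any of them. M82 was spread over nearly the whole gap at the first of them, between 4.84 and 10.87, and in the fit over all 17 arrays, which takes M82's spread into account, none of the 3 was called (adjusted p 0.0776, 0.0729 and 0.143). With the axis covariate the first kept its call (2.51, adjusted p = 0.0298), and the others had adjusted p of 0.0655 and 0.112. SAM1, an S-adenosylmethionine synthetase gene, rose by 0.53 ± 0.12 (adjusted p = 0.0268) and was lost without IL-1_1 replicate 4 or any single IL-1_4 array (adjusted p up to 0.105) and with the axis covariate (0.414). The ACC synthase genes, of the committed step, were not called, with changes of -0.20 for ACS1A to 0.57 for ACS5, and neither were ACO4 (-0.04) and ACO5 (0.01).

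Of the genes that carry the ethylene signal, EIL3, of the EIN3-like transcription factors, measured 13.12, 12.36, 12.81 and 13.10 in IL-1_1 and 11.27, 10.79 and 10.79 in IL-1_4. The lines did not overlap, and the change was 1.90 ± 0.22 (limma adjusted p = 0.00248; 0.0548 with the axis covariate). EIL1 rose by 0.67 ± 0.17 (0.036), EIL4 by 0.46 ± 0.12 (0.0421) and the receptor gene ETR6 by 0.93 ± 0.23 (0.0367). These 3 were each lost without IL-1_1 replicate 4 or any single IL-1_4 array, EIL4 and ETR6 also without IL-1_1 replicate 1, and ETR6 without replicate 2. Their highest adjusted p with an array left out was 0.125, 0.161 and 0.115, and none was called with the axis covariate (0.606, 0.52 and 0.269). The other receptor genes gave -0.03 for ETR4 to 0.49 for ETR5, and CTR1, the kinase that holds the pathway off, 0.10.

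Among the response factors PTI4 and ERF4 rose most. PTI4, an ERF-type factor first found as a partner of the resistance kinase Pto, measured 11.33, 11.77, 11.90 and 11.48 in IL-1_1 and 8.52, 8.36 and 8.89 in IL-1_4. ERF4 measured 10.39, 10.36, 10.29 and 10.33 in IL-1_1 and 8.11, 7.33 and 7.44 in IL-1_4. All IL-1_1 arrays were above all IL-1_4 arrays for both, and the changes were 3.03 ± 0.18 (limma adjusted p = 0.000134) and 2.71 ± 0.19 (adjusted p = 0.000223). Both kept their calls with any array left out, with the axis covariate (3.48 and 2.63; adjusted p = 0.00183 and 0.013) and with all 17 arrays (0.0203 and 0.0328). M82 ran from 7.70 to 10.89 for PTI4 and from 6.34 to 9.61 for ERF4, so its highest arrays came within about 1 unit of IL-1_1. PTI6 rose by 0.87 ± 0.19 (adjusted p = 0.0235, and up to 0.0947 with an array left out, being lost without IL-1_1 replicate 4 or any single IL-1_4 array; 0.184 with the axis covariate), and PTI5 gave 1.48 (0.0615). ERF-H1 fell by 1.54 on the log2 scale (SE 0.26; adjusted p = 0.0108) and was lost without replicate 1 or 3 of IL-1_4 (adjusted p up to 0.0536) and with the axis covariate (0.135). E8, a gene known from ripening fruit, was dim, at 5.16 in IL-1_1 and 5.19 in IL-1_4.

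**Figure D4:**
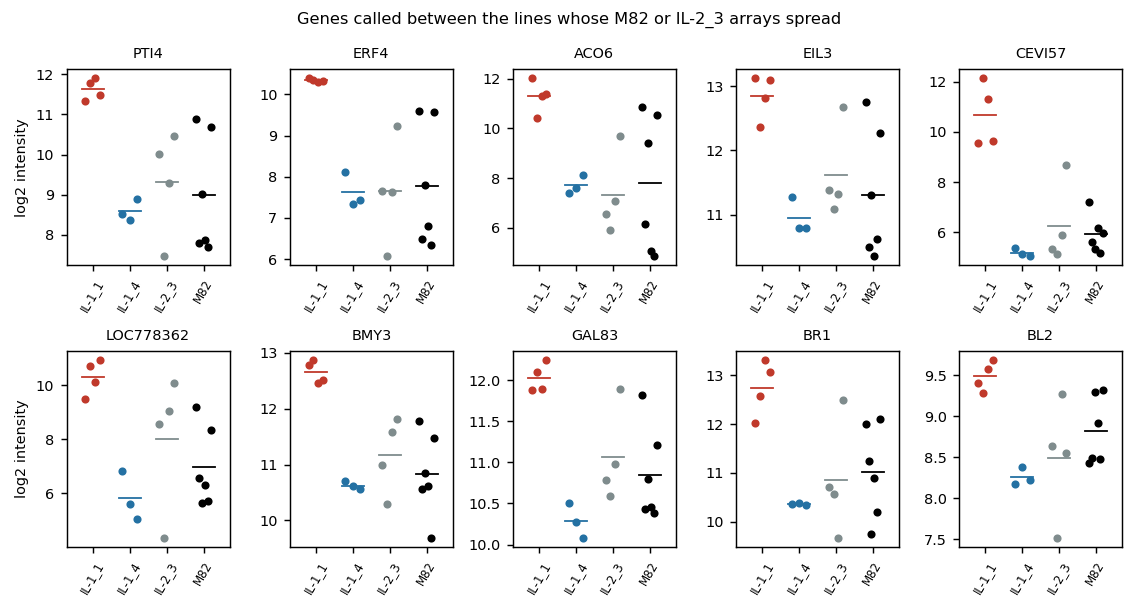
Log2 intensity (y axis of each panel, own scale) of 10 genes called higher in IL-1_1 than in IL-1_4, in every array of the 4 groups, with a line at each group's mean. IL-1_1 and IL-1_4 are apart in every panel, while the M82 and IL-2_3 points reach across much of the gap, for PTI4 as high as 10.89 in M82.

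Of 7 probe sets of abscisic acid and water stress genes 3 were called higher in IL-1_1 and 0 lower (42.9% and 0%, beside 9.67% and 8.39% of all probe sets), and 4 were not called. Changes ran from -0.53 to 2.76, with a median of 1.44. Without IL-1_4 replicate 2 or 3, and with the axis covariate, 0 of the 7 were called. NCED1, which encodes the rate-limiting enzyme of abscisic acid synthesis, measured 11.78, 9.16, 9.78 and 9.58 in IL-1_1 and 7.79, 8.19 and 7.88 in IL-1_4. JA2, a NAC transcription factor gene of the abscisic acid response, measured 10.35, 8.71, 8.21 and 8.51 in IL-1_1 and 6.25, 6.07 and 6.23 in IL-1_4. AREB1, a bZIP factor of the same response, measured 9.85, 8.84, 8.58 and 8.94 in IL-1_1 and 7.78, 7.60 and 7.45 in IL-1_4. For all 3 genes the lines did not overlap, and IL-1_1 replicate 1, the array with the highest axis score, was the highest. The changes were 2.12 ± 0.58 for NCED1 (limma adjusted p = 0.0466), 2.76 ± 0.48 for JA2 (0.0119) and 1.44 ± 0.29 for AREB1 (0.0182). With the axis covariate they were 0.25, 1.33 and 0.53 (adjusted p = 0.829, 0.209 and 0.307), and the list's median was 0.25. NCED1 and AREB1 were lost without any single IL-1_4 array, NCED1 also without IL-1_1 replicate 3 or 4, and JA2 without IL-1_4 replicate 2 or 3 (highest adjusted p 0.146, 0.0803 and 0.0567). The dehydrin gene TAS14 gave 1.98 (adjusted p = 0.062) and ZEP, of an earlier step in abscisic acid synthesis, 0.17.

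Among jasmonate and wound genes 5 of 18 were called higher and 1 was lower (27.8% and 5.56%, beside 9.67% and 8.39% of all), and the median change was -0.02. The axis covariate left 2 called higher and 0 lower, and the median change was then -0.015. Besides loxC, opr2 and AOS above, ARG1, an arginase gene, rose by 0.77 ± 0.19 (limma adjusted p = 0.0328), OPR1 by 0.95 ± 0.26 (0.0435) and the lipoxygenase gene TomloxE by 0.89 ± 0.25 (0.0482). The allene oxide cyclase gene AOC gave -0.64 (0.205), and loxD, the lipoxygenase gene of jasmonate synthesis, 0.40 (0.631). ARG1 and OPR1 were lost without IL-1_1 replicate 1, 3 or 4 or any single IL-1_4 array, and TomloxE without IL-1_1 replicate 2 or 4 or any single IL-1_4 array, with adjusted p up to 0.116, 0.15 and 0.147. Under that covariate the 3 gave 0.47, 0.13 and 0.31 (adjusted p = 0.405, 0.773 and 0.643), and AOS -0.69 (0.424).

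Of 16 probe sets of pathogenesis-related genes 2 were called higher and 0 lower (12.5% and 0%, beside 9.67% and 8.39% of all), so that the share called higher was near that of all probe sets. The median change was 0.44, and the direction turned with the axis covariate, which gave a median of -0.37 with 1 called higher and 2 lower. CEVI57, named for its induction by a viroid, had the largest rise of any probe set with a symbol. It measured 9.57, 12.13, 11.32 and 9.64 in IL-1_1 and 5.37, 5.13 and 5.04 in IL-1_4. The IL-1_1 arrays differed among themselves by over 2 units, but all were far above IL-1_4, and the change was 5.49 ± 0.63 (limma adjusted p = 0.00242). M82 lay between 5.18 and 7.22, and IL-2_3 replicate 4, at 8.68, was the only array of the other groups nearer IL-1_1. NP24-I, an osmotin-like protein gene, rose by 1.95 ± 0.50 (0.0384) and was lost without IL-1_1 replicate 1 or 4 or any single IL-1_4 array (adjusted p up to 0.125), and with the axis covariate (0.301). PR-5, at 4.91 in IL-1_1 and 4.89 in IL-1_4, and the glucanase gene GluB, at 4.60 and 4.59, were dim and not called. Eix1, a receptor gene for a fungal xylanase that stands outside this list, measured 9.83, 8.22, 10.07 and 9.78 in IL-1_1 and 6.16, 6.39 and 6.60 in IL-1_4. Replicate 2 was the lowest IL-1_1 array, still above all of IL-1_4, and the change was 3.09 ± 0.43 (adjusted p = 0.00532; 0.125 with the axis covariate).

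Among sugar and starch genes the calls went both ways. Calls numbered 4 higher and 2 lower among 22 probe sets (18.2% and 9.09%, beside 9.67% and 8.39% of all), whose median change was -0.29. The axis covariate left 3 called higher, the probe sets of BMY3, and 0 lower, and the median turned to 0.27. The beta-amylase gene BMY3, of starch breakdown, was called on all 3 of its probe sets. The brightest measured 12.78, 12.88, 12.46 and 12.51 in IL-1_1, against 10.70, 10.62 and 10.55 in IL-1_4. The lines were about 2 units apart with little spread, and the changes were 2.03 ± 0.13, 1.79 ± 0.12 and 1.44 ± 0.15 (limma adjusted p = 0.00015, 0.000158 and 0.00147). All 3 kept their calls in each of the 16 alternative fits. M82 ran from 9.69 to 11.78 at the brightest, and 2 of the 10 other arrays lay nearer IL-1_1. CIF1, named as an inhibitor of cell wall invertase, measured 12.19, 11.90, 11.87 and 12.31 in IL-1_1 and 11.04, 10.56 and 10.57 in IL-1_4, a change of 1.35 ± 0.17 (adjusted p = 0.00337; 0.0877 with the axis covariate). The calls lower in IL-1_1 were the fructokinase gene FRK1 (-0.70, adjusted p = 0.0162) and the hexokinase gene Hxk2 (-0.52, 0.0213), which hand free hexoses to metabolism. Both were lost without any single IL-1_4 array, Hxk2 also without IL-1_1 replicate 4, with adjusted p up to 0.0692 and 0.0836, and with the axis covariate (0.162 and 0.169). The invertase genes LIN7 and lin5 gave -1.21 and -0.71, the ADP-glucose pyrophosphorylase genes of starch synthesis -0.86 for AgpL1 to -0.11 for AGP-S2, and the sucrose synthase gene sus3 0.51, none of them called.

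GAL83, which encodes the beta subunit of the SnRK1 kinase, a sensor of low energy, was named after its values were seen, as a call kept in each of the 16 alternative fits. It measured 11.88, 12.10, 11.89 and 12.25 in IL-1_1 and 10.51, 10.27 and 10.08 in IL-1_4, a change of 1.74 ± 0.14 (limma adjusted p = 0.000488). M82 ran from 10.39 to 11.81, and its top array reached just below the IL-1_1 arrays. SNF4, another SnRK1 subunit gene, was dim, at 6.53 in IL-1_1 and 5.94 in IL-1_4, and was called at 0.59 ± 0.12 (0.0177), but lost without any single IL-1_4 array (adjusted p up to 0.0787) and with the axis covariate (0.215). Named on the same ground as GAL83, BR1 rose by 2.38 ± 0.29 (0.00305), BL2 by 1.23 ± 0.12 (0.0014) and LOC543605 by 1.30 ± 0.11 (0.000656).

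Of 12 probe sets of cell division genes 0 were called higher and 2 lower in IL-1_1 (16.7%, beside 8.39% of all), with a median change of -0.55 against -0.04 over all. The pattern of this list also names fsm1, which is not counted in it. fsm1 was called higher in IL-1_1 (1.39) and is described with the regulators of fruit growth below. CDKB1, a cyclin-dependent kinase of mitosis, measured 10.61, 11.69, 11.07 and 11.10 in IL-1_1 and 12.14, 12.06 and 12.16 in IL-1_4. PCNA, the sliding clamp of DNA polymerase, measured 11.53, 11.98, 11.94 and 11.10 in IL-1_1 and 12.62, 12.46 and 12.60 in IL-1_4. All IL-1_1 arrays were below all IL-1_4 arrays, and the changes were -0.998 ± 0.23 for CDKB1 (limma adjusted p = 0.0275) and -0.92 ± 0.22 for PCNA (0.0305). The mitotic cyclin and kinase genes CycB2 (-1.44, adjusted p = 0.0812), CycA1 (-1.09, 0.0587), CDKB2 (-0.94, 0.0603) and CycA2 (-0.79, 0.0558) had larger or like differences without passing. CDKA1, the kinase present all through the cycle, gave 0.25, and the inhibitor gene krp1 0.01. Without IL-1_1 replicate 2, 6 of the 12 were called lower, without IL-1_1 replicate 3 or 4 it was 1, and without any single IL-1_4 array 0. CDKB1 was lost without IL-1_1 replicate 3 or 4 and PCNA without IL-1_1 replicate 1 (highest adjusted p with an array left out 0.103 and 0.111). With the axis covariate CDKB1 gave -0.28 and PCNA -0.43 (adjusted p = 0.498 and 0.461), and the list's median was -0.11. In that fit 1 of the 12 was called lower, a member other than CDKB1 and PCNA.

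Of 46 probe sets of cell wall genes 4 were called higher and 5 lower. Those shares, 8.7% and 10.9%, were near the 9.67% and 8.39% of all probe sets, and the median change was -0.16. The axis covariate left 0 called higher and 2 lower, and a block for replicate number left 0 called either way. EXPA10, of the expansins that loosen the wall, measured 7.03, 7.09, 6.74 and 6.99 in IL-1_1 and 8.13, 7.79 and 8.12 in IL-1_4, a change of -1.05 ± 0.13 (limma adjusted p = 0.00327). The lines did not overlap, and the call held with any array left out. It did not hold with the axis covariate (-1.12, adjusted p = 0.0528) or with the replicate block. EXP12, another expansin gene, fell by 1.12 on the log2 scale (SE 0.26; 0.0287), and MAN2, an endo-mannanase gene, by 2.10 (SE 0.53; 0.0362). EXP12 was lost without any single IL-1_4 array, and MAN2 without IL-1_1 replicate 1, 3 or 4 or IL-1_4 replicate 1 or 2 (adjusted p up to 0.103 and 0.117), and both with the axis covariate (0.203 and 0.516). In the other direction the beta-galactosidase gene TBG2 measured 9.61, 9.63, 9.38 and 9.85 in IL-1_1 and 8.87, 8.55 and 8.79 in IL-1_4, a change of 0.88 ± 0.14 (0.00778). That call held with any array left out but not with the axis covariate (0.13) or with the replicate block. The 3 probe sets of XTH16, the brightest of the list at 13.89 to 14.14 in the IL-1_1 means, gave 0.07 to 0.13.

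Regulators of fruit growth and form were called in a few cases only. fsm1, a small MYB-like gene of early fruit growth, measured 12.64, 12.38, 12.42 and 13.04 in IL-1_1 and 11.80, 10.996 and 10.89 in IL-1_4, a change of 1.39 ± 0.26 (limma adjusted p = 0.0151). The lines did not overlap, though M82 covered 8.64 to 12.73, and the call was lost without IL-1_4 replicate 2 or 3 (up to 0.0695), over all 17 arrays (0.162) and with the axis covariate (1.02, adjusted p = 0.232). OVATE, a gene of fruit shape, rose by 1.21 ± 0.23 (0.0162). Its call was lost without replicate 1 or 2 of IL-1_4 (up to 0.071), over all 17 arrays (0.176) and with the axis covariate (0.64, 0.285). It was the only call among 6 probe sets of meristem and organ shape genes (16.7%, beside 9.67% of all called higher), whose median was -0.05. Of 6 MADS-box probe sets, with a median of 0.04, TDR8 alone was called (16.7%, again beside 9.67%), at 2.45 ± 0.61 (0.0351). It measured 8.83, 8.75, 6.69 and 9.12 in IL-1_1 and 6.56, 5.32 and 5.80 in IL-1_4, so that IL-1_1 replicate 3 came close to IL-1_4, and its call was lost without IL-1_1 replicate 1, 2 or 4 or any single IL-1_4 array (up to 0.124) and with the axis covariate (0.425). TDR4 gave 0.07 (interval -1.05 to 1.18), and the ripening factor gene RIN was near the floor, at 4.16 in IL-1_1 and 4.15 in IL-1_4.

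Of the auxin genes 1 of 14 probe sets was called higher and 0 lower (7.14% and 0%, beside 9.67% and 8.39% of all), with a median change of 0.23. IAA7, an Aux/IAA repressor gene, measured 8.23, 8.54, 7.99 and 8.77 in IL-1_1 and 7.29, 7.37 and 7.11 in IL-1_4 on its brighter probe set, a change of 1.13 ± 0.19 (limma adjusted p = 0.0107). The lines did not overlap, and the call was lost without IL-1_4 replicate 3 (0.0574) and with the axis covariate (0.13). Its other probe set was dim, at 4.44 in IL-1_1 and 4.20 in IL-1_4, and gave 0.24 (0.188). None of the 7 gibberellin probe sets was called, with changes of -0.65 for GA3ox1 to 0.42 for CPS and a median of -0.26.

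Of 9 probe sets of light signalling genes 2 were called higher and 0 lower (22.2% and 0%, beside 9.67% and 8.39% of all), with a median of 0.25. The axis covariate left 0 called, with a median of 0.055. The blue light receptor gene CRY2 rose by 0.80 ± 0.14 (limma adjusted p = 0.0127) and COP1, of the ubiquitin ligase that marks light-response factors for destruction, by 0.76 ± 0.14 (0.0154). Both were lost without IL-1_4 replicate 2 or 3 (adjusted p up to 0.0645 and 0.0711), and with the axis covariate (0.54 and 0.39; 0.204 and 0.247). No photosynthesis gene of 7 was called, and the light-harvesting gene CAB4 gave -1.11 with an adjusted p of 0.256. Among 6 heat shock probe sets 0 were called higher and 2 lower (0% and 33.3%, beside 9.67% and 8.39% of all). They were HSP21, of a chloroplast small heat shock protein, at -1.44 ± 0.24 (0.0106) and Hsp90-1 at -0.34 ± 0.10 (0.0497). Both were lost with the axis covariate, at -0.62 and -0.29 (0.118 and 0.327). HSP21 was lost without IL-1_4 replicate 2 or 3 (up to 0.0551) and Hsp90-1 without IL-1_1 replicate 1, 2 or 4 or any single IL-1_4 array (up to 0.161). Of 15 antioxidant probe sets 1 was called higher and 0 lower (6.67% and 0%, beside 9.67% and 8.39% of all). It was cat1, a catalase gene, at 1.01 ± 0.18 (0.014), lost without IL-1_4 replicate 2 or 3 (up to 0.0581) and with the axis covariate (0.55, 0.239). None of 6 phenylpropanoid probe sets and none of 7 of the 14-3-3 genes was called.

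The remaining large changes were of genes given as numbers and of Dea1. Dea1, named for its induction by arachidonic acid, measured 7.86, 7.57, 5.76 and 6.49 in IL-1_1 and 10.16, 10.12 and 10.22 in IL-1_4, a change of -3.25 ± 0.49 (limma adjusted p = 0.00691). IL-1_4 was even and high, and M82, from 7.90 to 10.74, lay above every IL-1_1 array. IL-2_3 measured 8.66, 8.34, 7.99 and 5.92, so that its replicate 4 lay among the IL-1_1 arrays. Dea1 gave -3.93 (0.0572) with the axis covariate. LOC778362 rose by 4.48 ± 0.49 and 3.88 ± 0.47 on its 2 probe sets (0.00201 and 0.00287), LOC543955 by 2.95 ± 0.44 (0.00691), LOC544187 by 2.94 ± 0.47 (0.00893) and LOC544312 by 2.92 ± 0.25 (0.000622). Of these, LOC544187 had an adjusted p of 0.121 over all 17 arrays, with M82 between 8.13 and 14.19, and with the axis covariate LOC543955 and LOC544187 gave 2.57 and 2.40 (0.131 and 0.16). Falls near the threshold were those of LePIP1 (-1.29, adjusted p = 0.0179), LOC543746 (-1.17, 0.034) and LOC778303 (-1.16, 0.0256). LePIP1 and LOC543746 were lost without any single IL-1_4 array, LOC543746 also without IL-1_1 replicate 1, 3 or 4, and LOC778303 without IL-1_1 replicate 4 or IL-1_4 replicate 2 or 3, with adjusted p up to 0.0783, 0.128 and 0.0944, and all 3 with the axis covariate (0.247, 0.439 and 0.212). LesAffx.70768.1.S1_at, without a symbol, averaged 11.71 ± 0.47 in IL-1_1 and 6.32 ± 0.59 in IL-1_4, a change of 5.39 ± 0.34 (0.00015), with M82 between 5.26 and 10.86.

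**Figure D5:**
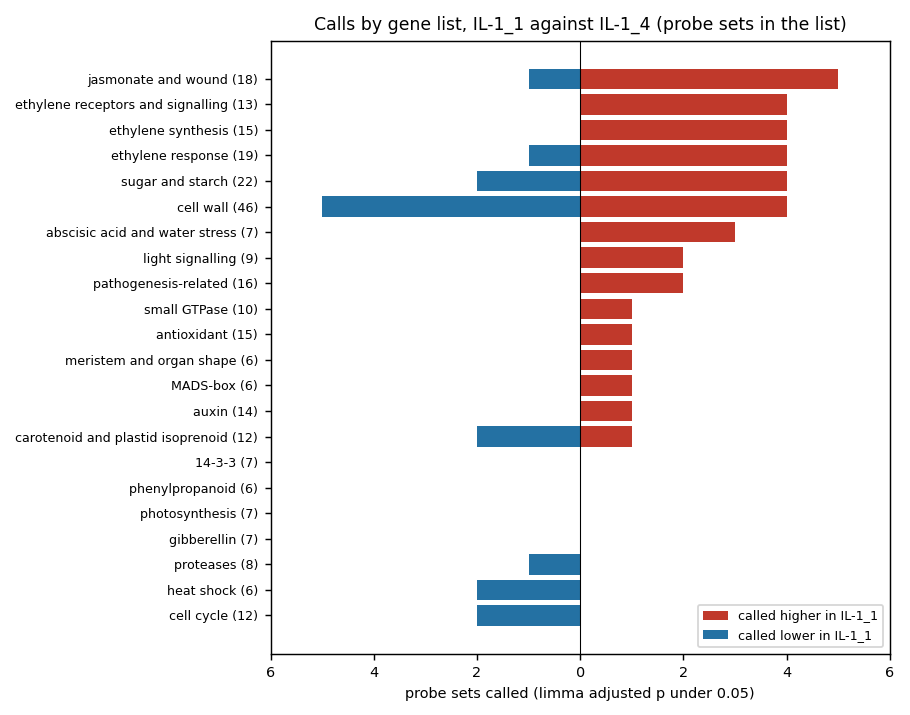
Number of probe sets called higher (red, to the right) and lower (blue, to the left) in IL-1_1 than in IL-1_4, x axis, for 22 gene lists, y axis, with the number of probe sets in each list in brackets. The 3 ethylene lists together hold 12 calls to the right and 1 to the left, while cell wall genes hold 4 and 5. Of the 12, 3 are probe sets of the gene ACO6, none of them called over all 17 arrays. Another is ER24, at which IL-1_4 stood apart. Of all probe sets, 9.67% were called higher and 8.39% lower.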

How the data were processed

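RNA of tomato carpels was labelled with biotin by a single-cycle protocol, per the labels' protocols, and hybridised to Affymetrix arrays, as the names of the control probe sets show. The deposited values, 1 column per array, were used as they stood. They are log2 probe set intensities of the authors; the base was inferred from their range and is not stated. The tool was affy, per the submitters' processing notes, without a version, and how background and summarization were done is not given in these sources. Array medians of the 7 arrays lay between 9.97 and 10.02.

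The 108 control probe sets were left out of 10209. Names come from an old platform annotation: 909 probe sets have a symbol and 9192 have none. IL-1_1 and IL-1_4 were compared with limma 3.58.1 in R 4.3.3, without covariates, two-sided, with Benjamini-Hochberg adjustment over 10101 probe sets. Errors of changes are standard errors, levels are mean ± SD, and intervals are at 95%. The number of arrays limits the precision. The fit was tested on simulated data in which 50 probe sets took each size of change. Log2 changes of 0.5, 1, 2 and 4 were recovered at 28%, 76%, 88% and 100%, and 9.88% of calls were false, above the set rate of 0.05. With 9901 of the 10101 probe sets left unchanged, fewer were changed than were called in the data (18.1%). These shares need therefore not hold for the data.

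The comparison, the 28 gene lists, written as patterns over symbols, and the rules were chosen with earlier results of these data known. Symbols that matched a pattern by their letters alone were taken out after the names were seen. Also not counted, though the patterns name them, were fsm1 in the cell division list and pip1 in the protease list. Named are the 12 largest rises and 12 largest falls among calls that carry a symbol and keep the lines' arrays apart, from each list the called members (4 at most; the 2 lowest in p if no member was called), and 2 unnamed probe sets each way. Genes outside this rule were named after their values were seen, to complete a set or a pathway. Chromosome positions and sequences were not analysed here. Whether replicate numbers pair the lines was not settled: deviations of same-numbered arrays correlated at 0.082, 0.22 and 0.145. Those correlations were low, yet IL-1_1 replicates 1 to 3 each correlated best with the IL-1_4 array of the same number. Alternatives were other fits, normalizations, filters, array weights, a replicate block, an axis covariate and each array left out.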

Additional observations from a re-analysis of the deposited data

Results flagged for a closer look

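In groups of 4 or 6 arrays, an array was singled out where its gap to the nearest other array was large beside the group's whole range. This held for 12 of 213 sets of values, and chance alone gives about 1 in 20. In IL-1_1, Eix1 was 8.225 in replicate 2 where the other arrays had 9.782 to 10.068, and TDR8 was 6.692 in replicate 3 where the others had 8.748 to 9.121. In IL-2_3, replicate 4 was high for LOC778303 (7.643, the others 5.754 to 5.909), ETR6 (10.173, the others 8.144 to 8.474), ARG1 (11.25, the others 10.084 to 10.232) and the axis score (33.33). Also in IL-2_3, RAN2A was 13.348 in replicate 2 (the others 13.241 to 13.252) and fsm1 10.171 in replicate 3 (the others 11.392 to 11.558). In M82, replicate 1 was low for CAB4 (10.167, the others 12.324 to 13.559) and tft8 (12.057, the others 12.664 to 12.955), replicate 6 high for LOC778303 (7.722, the others 6.264 to 6.758) and replicate 3 low for LEA14 (12.233, the others 12.476 to 12.562). IL-1_4, with 3 arrays, was not tested this way.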

How the results depend on the processing

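The number of calls, 1824, was 1708 to 1962 with the dimmest 25% of probe sets left out, other normalizations or an intensity trend, 1776 with all 17 arrays in the fit, and 1578 without IL-1_1 replicates 1 and 4. It was 2842 with array weights, 387 with a replicate block, 345 with the axis covariate, 610 with a 2-fold minimum, 485 at a false discovery rate of 0.01, and 496 to 2151 with 1 array left out. Of the 1824 calls, 1381 were kept over all 17 arrays. Calls lost there included OVATE, ETR6, EIL4, PTI6, OPR1, ARG1, NP24-I, TDR8, cat1, AOS, LOC778303, PT2 and SNF4. Their limma adjusted p ran from 0.0539 for cat1 to 0.284 for ETR6. Whether the numbers pair the lines was not settled, so neither the fit with the block nor the main fit without it is set aside. IL-1_1 replicates 1 to 3 each correlated best with the IL-1_4 array of the same number. The 142 calls with IL-1_1 apart became 79 with the block, 70 with the axis covariate, 86 to 151 with 1 array left out, 410 without M82 replicate 1 and IL-2_3 replicate 4, and 1202 where group means decided the side. The 51 calls with IL-1_4 apart became 40 to 51 with 1 array left out and 157 by group means. Of the 1824 calls, 196 were kept in every one of the 16 alternative fits that held a value for them, 129 higher and 67 lower in IL-1_1. IL-1_1 stood apart at 63 of these and IL-1_4 at 31. With any 1 array left out 449 were kept. Of 1164 values of single probe sets under these alternatives, 942 stayed on their side of the threshold with the same sign, 207 lost and 10 gained a call. The sign of 5 turned, each without a call and with the axis covariate: CAB4 1.25, DFR 0.22, tft8 0.087, Stig1 0.19 and LEA14 -0.77. The cause of these shifts was not tested, except that leaving out an array leaves fewer samples. The dim filter holds no value for MTS1, opr2, sbt4a, formin-I2I and ER24, among others. Those named are counted among the 196, though that fit did not test them. With an IL-1_4 array left out the fit rests on 2 arrays of that line.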

Other observations

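Several related genes outside the lists were also called, and are named here after their values were seen, with no list behind them. Of the 4 whose names or products tie them to phosphate supply, 3 were higher and 1 lower in IL-1_1. They were taken from the calls alone, and genes of this kind that were not called were not counted. No share called can thus be set beside the 9.67% and 8.39% of all probe sets. The ribonuclease gene RNALE, induced in phosphate-starved tomato cells, measured 11.11, 9.57, 10.21 and 9.57 in IL-1_1 and 8.34, 8.41 and 8.12 in IL-1_4, a change of 1.83 ± 0.37 (limma adjusted p = 0.0186). Its relative rnalx rose by 1.14 ± 0.26 (0.025) and the phosphate starvation gene TPSI1 by 1.32 ± 0.36 (0.0468), while the phosphate transporter gene PT2, dim at 5.26 in IL-1_1 and 5.94 in IL-1_4, fell by 0.68 on the log2 scale (0.0254). Each was lost without IL-1_4 replicate 2 or 3, with adjusted p up to 0.0813, 0.104, 0.144 and 0.0848, and RNALE and TPSI1 also without IL-1_4 replicate 1, TPSI1 without IL-1_1 replicate 2 or 4 and PT2 without IL-1_1 replicate 4. With the axis covariate all 4 lost their call, at 0.86 for RNALE, 0.93 for rnalx, 0.20 for TPSI1 and -0.54 for PT2 (adjusted p = 0.343, 0.283, 0.795 and 0.284).

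Of the translation factor eIF-5A and its modifying enzyme, the gene eIF-5A1 measured 13.93, 13.26, 13.68 and 13.88 in IL-1_1 and 12.25, 11.56 and 11.92 in IL-1_4, a change of 1.78 ± 0.22 (limma adjusted p = 0.00313). The deoxyhypusine synthase gene DHS went the other way, at -0.47 ± 0.13 (0.0497), and was lost without IL-1_1 replicate 1, 2 or 4 or any single IL-1_4 array (up to 0.17). All 3 probe sets of the phosphomannomutase gene PMM fell, by 0.69, 0.87 and 1.12 on the log2 scale (0.0256, 0.00499 and 0.0203). The middle call held with any array left out, and the others were lost without IL-1_1 replicate 4 or any single IL-1_4 array (0.107 and 0.0811). The chromatin gene MSI1 fell by 0.53 (0.0147) and the DNA methyltransferase gene MET1 by 0.63 (0.0214), MSI1 being lost without any single IL-1_4 array (up to 0.0732) and MET1 without IL-1_4 replicate 1 or 3 (up to 0.095). None of these calls was kept with the axis covariate, with adjusted p of 0.08 for eIF-5A1, 0.669 for DHS, 0.42, 0.0899 and 0.337 for PMM, 0.0856 for MSI1 and 0.126 for MET1.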
